A study of Mus musculus with 23 samples.

Results

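Pyridoxal phosphate (PLP), the active form of vitamin B6, is the cofactor of a large family of enzymes that act on amino acids, and the 36 genes described here encode enzymes that make or handle PLP or that need it. They were taken by symbol from the count table, in which all 36 were found among 24411 genes. The rule is a list of names that uses no measured value, though it was drawn up with earlier results of these data known. The set holds 3 genes of vitamin B6 salvage (Pdxk, Pdxp, Alpl), 10 transaminases, 6 decarboxylases and 5 enzymes of glycine, serine and threonine metabolism. It also holds 4 enzymes of sulfur and selenium transfer and 3 genes of enzymes that condense an acyl-CoA with an amino acid. The rest are 3 glycogen phosphorylases, kynureninase (Kynu) and sphingosine phosphate lyase (Sgpl1). RNA was sequenced in 23 libraries of cortical astrocytes from mice labelled male, at postnatal day 70, captured with magnetic beads against the astrocyte surface antigen ACSA-2. All mice were homozygous for floxed Aldh7a1 and all received 4-hydroxytamoxifen at postnatal days 3 to 4. ConAstro (n = 4) lacked Cre and had the control diet, and cKOAstro (n = 7) carried CreER at 1 allele of Slc1a3, a gene of astrocytes, so that Aldh7a1 was deleted from astrocytes by tamoxifen. The same 2 genotypes were also fed sulforaphane (SFN), a compound of cruciferous plants that switches on the stress regulator NRF2, from postnatal day 21, as SFN-fed ConAstro (n = 5) and as SFN-fed cKOAstro (n = 7). The Cre allele also removes 1 copy of Slc1a3, and control mice carry no Cre, so an effect of Cre or of the Slc1a3 allele cannot be told apart from that of Aldh7a1.

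ALDH7A1 oxidizes an aldehyde of lysine breakdown. When the enzyme is missing, the aldehyde accumulates in a cyclic form that reacts with PLP and inactivates it, which is the basis of pyridoxine-dependent epilepsy. Cells obtain PLP by phosphorylating pyridoxal with pyridoxal kinase (Pdxk) and lose it through pyridoxal phosphatase (Pdxp), while tissue-nonspecific alkaline phosphatase (Alpl) removes the phosphate outside the cell so that pyridoxal can cross membranes. In the brain, PLP enzymes make GABA, dopamine, serotonin and histamine, clear GABA, interconvert glutamate and other amino acids, and build serine and glycine. The comparisons below ask whether the mRNA of these enzymes differed with the loss of ALDH7A1 or with SFN. The amounts of PLP, protein and enzyme activity were not measured in these libraries.

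Total counts ranged from 46890715 to 391701247 per library, and 35 of the 36 genes had at least 3 counts in every library. The labelled genotype was checked by Aldh7a1, given as TMM-normalized CPM (counts scaled to library size). ConAstro libraries held 207 to 222 CPM and cKOAstro libraries held 45.7 to 77.7 CPM. In SFN-fed ConAstro, replicate 1 as labelled had 55.2 CPM, against 177 to 224 CPM in the other 4, and in SFN-fed cKOAstro, replicate 2 as labelled had 221 CPM, against 42.8 to 57.8 CPM in the other 6. Slc1a3 split the same way: these libraries had 2084 and 4410 CPM, where ConAstro had 4009 to 4957 CPM and cKOAstro 1800 to 2851 CPM. Both went against their labels, were kept in their labelled groups, and are left out where the text says so. In cKOAstro replicate 2, a library labelled male, Xist (transcribed from the inactive X chromosome) measured 1536 CPM. Summed over 8 astrocyte markers, the libraries held 12434 to 22473 CPM, and over 6 oligodendrocyte markers 18813 to 50562 CPM, the highest in SFN-fed cKOAstro replicate 4, so the ACSA-2 capture carried much oligodendrocyte RNA. Fewer cells of a type and less RNA per cell cannot be told apart in such bulk libraries. Library names in the labels fall into 2 series, 6 with the word Astro (cKOAstro replicates 2 and 4, SFN-fed ConAstro replicate 1 and SFN-fed cKOAstro replicates 4 to 6) and 17 with numbers, and ConAstro had only numbered libraries. The numbered names start with 5 numbers that were not spread evenly over the groups: 143 (4 ConAstro, 3 SFN-fed cKOAstro), 141 (3 cKOAstro), 146 (2 cKOAstro), 145 (2 SFN-fed ConAstro) and 147 (2 SFN-fed ConAstro, 1 SFN-fed cKOAstro). ConAstro thus shared none of these numbers with cKOAstro or with SFN-fed ConAstro, and cKOAstro shared none with SFN-fed cKOAstro. Whatever the numbers stand for cannot be told apart from genotype on the control diet, or from diet in ConAstro. Among numbered libraries it cannot be told apart from diet in cKOAstro either, and the numbered libraries are not 1 uniform series.

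In ConAstro, levels per kb of exon, which allow a comparison between genes, spanned more than 4 orders of magnitude. Glycogen phosphorylase B (Pygb), the brain form of the enzyme that releases glucose phosphate from glycogen, was highest at 179 ± 7.26 CPM per kb (SD, n = 4). Phosphoserine aminotransferase (Psat1), which makes phosphoserine on the way to L-serine, followed at 139.7 ± 7.00 CPM per kb. Ornithine aminotransferase (Oat) came next with 78.3 ± 2.26, and then GABA transaminase (Abat), the enzyme that breaks down GABA, with 52.3 ± 3.61 CPM per kb. The 3 highest genes did not overlap with their neighbours in the order, whereas from Abat down to Sptlc1 in place 13 each gene overlapped with the next over the 4 libraries. The muscle phosphorylase Pygm (46.2 ± 5.68), the alanine aminotransferase Gpt (41.2 ± 5.78) and the P protein of glycine cleavage Gldc (38.7 ± 3.72 CPM per kb) stood next in that run. Pyridoxal kinase (Pdxk) was the highest of the salvage genes at 33.9 ± 7.68 CPM per kb, above Alpl at 16.8 ± 3.13 and Pdxp at 9.77 ± 2.30 CPM per kb. At the low end, Shmt1 had 1.05 ± 0.111, tyrosine aminotransferase (Tat), an enzyme of the liver, 0.279 ± 0.138 and Kynu 0.00731 ± 0.00422 CPM per kb. Kynu, which cleaves kynurenine in tryptophan breakdown, had at most 22 counts in a library and 0 counts in 3 libraries, which allows up to 0.0230 to 0.0372 CPM there by a floor of 3 counts, for counting error only.

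**Figure D1:**
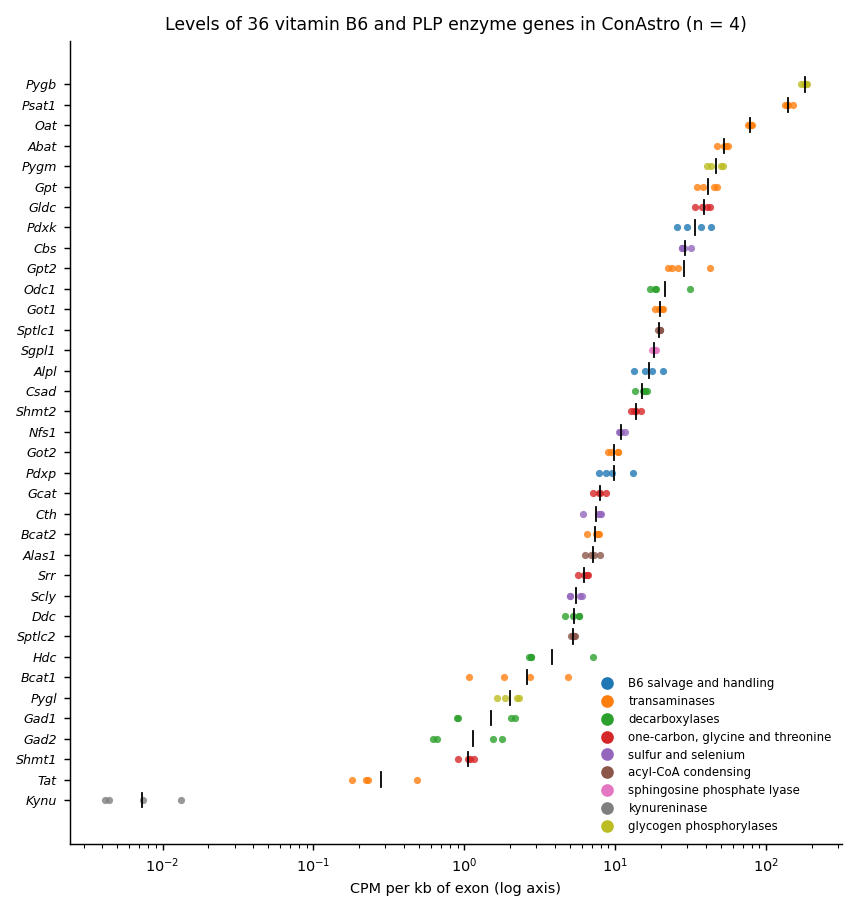
Level of each of the 36 genes in ConAstro. Points are the 4 libraries, black bars their means, the horizontal axis is CPM per kb of exon on a log scale, and colours mark the enzyme's role; Pygb, Psat1 and Oat stand apart at the top, and Tat and Kynu at the bottom.

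Where several genes encode the same reaction, 1 form often exceeded the other in every library. Pygb was above Pygm in all 23 libraries (ratio of levels per kb 2.77 to 5.00, median 3.87) and Pygm above the liver form Pygl in all 23 (14.6 to 30.6, median 23.04). Mitochondrial serine hydroxymethyltransferase Shmt2 was 5.38 to 15.9 times the cytosolic Shmt1, and cytosolic aspartate aminotransferase Got1 was 1.38 to 2.62 times the mitochondrial Got2. Gad1 was 1.16 to 2.14 times Gad2. Sptlc1 and Sptlc2 are not alternative forms but encode subunits of the same enzyme, serine palmitoyltransferase, the first of sphingolipid synthesis. Sptlc2 was below Sptlc1, with a ratio of 0.209 to 0.325. Of the branched-chain aminotransferases, mitochondrial Bcat2 was above cytosolic Bcat1 in all 23 libraries, but the ratio ran from 1.10 to 7.56. The alanine aminotransferases had no fixed order, since mitochondrial Gpt2 was above Gpt in 4 of 23 libraries and the ratio ran from 0.370 to 1.43. Of the ratios given here, these last 2 had the widest range relative to their lowest value.

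The genes also differed in how tightly they were held within ConAstro. For 20 of 36 the coefficient of variation over the 4 libraries was under 10%, as for Sptlc1 (1.87%), Pygb (4.05%), Psat1 (5.01%) and Shmt2 (6.15%). It was over 25% for 8, among them Bcat1 (62.0%), histidine decarboxylase Hdc (57.1%), Gad2 (52.0%), Tat (49.3%) and Gad1 (45.9%). Gad1 and Gad2 encode the glutamate decarboxylases that make GABA in inhibitory neurons, and were high in the same libraries. Gad1 measured 16.4, 6.95, 15.6 and 6.86 CPM in ConAstro and Gad2 measured 10.4, 3.86, 9.07 and 3.63 CPM in the same 4 libraries. Replicates 1 and 3 were therefore the high ones for both genes. The summed level of 6 markers of inhibitory neurons (Slc32a1, Sst, Pvalb, Vip, Npy, Lhx6) was 19.9, 7.24, 149.7 and 7.59 CPM in these 4 libraries. It was 10.9 to 47.4 CPM in the other groups. Summed over 6 markers of neurons in general, the 4 ConAstro libraries held 580, 269, 402 and 214 CPM. The part of either sum in the Gad1 and Gad2 levels was not tested.

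For loss of ALDH7A1 on the control diet, none of the 36 genes was called in cKOAstro against ConAstro. The threshold was an adjusted p of 0.05 (edgeR quasi-likelihood test, Benjamini-Hochberg over all genes), and 0 of 36 were called, against 0.023% of the 17406 genes tested. At an unadjusted p under 0.05 there were also 0 of 36, where 3.74% of all genes passed, and DESeq2 and limma-voom likewise called 0 members at an adjusted p under 0.05. The median log2 fold change of the 36 was 0.032, beside -0.0072 for all genes, with 22 of 36 above 0. The genes that handle vitamin B6 show the sizes involved. Pdxk held 199, 162, 233 and 138 CPM in ConAstro and 124 to 257 CPM (median 171) in cKOAstro, a log2 difference of -0.10 ± 0.19 (SE). Pdxp differed by 0.11 ± 0.17 and Alpl by 0.06 ± 0.13. The groups overlapped for all 3.

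The precision of that result varied by gene. For the mitochondrial enzyme Shmt2 the log2 difference was -0.02 with a 95% interval of -0.12 to 0.089, the narrowest of the values given here. Sptlc1 (-0.03, interval -0.14 to 0.082), Nfs1, the cysteine desulfurase that supplies sulfur for iron-sulfur clusters (-0.0012, -0.13 to 0.12) and Got2 (0.05, -0.091 to 0.20) were about as tight. In contrast, Bcat1 (-0.04) had an interval of -1.16 to 1.07, so that a doubling or a halving would lie inside it. The intervals of Gpt2 (0.07, -0.59 to 0.73), Gad1 (0.54, -0.088 to 1.17) and Tat (0.62, -0.16 to 1.40) were also wide. Gad1 (unadjusted p = 0.0853) and Tat (unadjusted p = 0.108) had the lowest edgeR p-values of the 36, with an adjusted p of 0.981 for each. Bcat2 and Cbs measured 0.23 ± 0.20 and 0.16 ± 0.17, where 2 Astro-named cKOAstro libraries held the highest values for both genes.

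**Figure D2:**
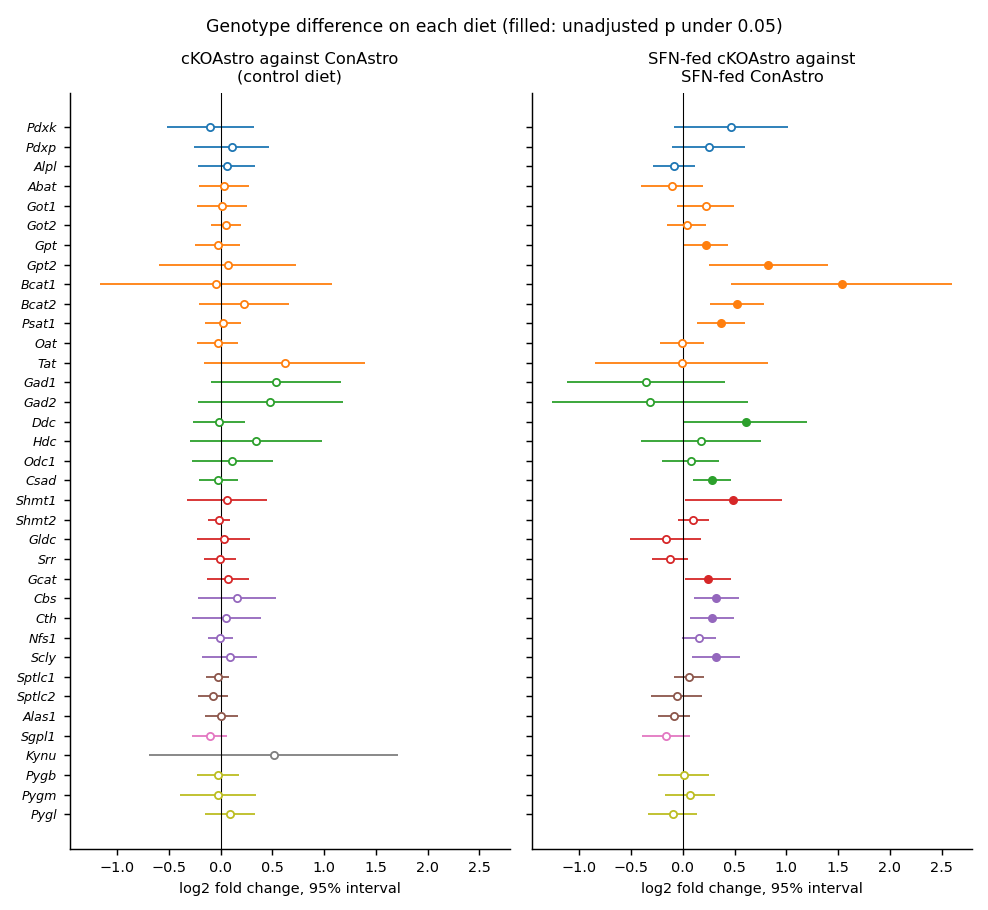
Log2 fold change of each gene between genotypes, with its 95% interval, on the control diet (left) and the SFN diet (right). Filled points have an unadjusted p under 0.05, which holds for 0 genes on the left and for 12 on the right, all above 0; colours mark the enzyme's role.

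On the SFN diet more of the genes had low p-values, with none past the adjusted threshold in edgeR. Whether the genotype difference itself depended on the diet is the interaction, given further on. SFN-fed cKOAstro and SFN-fed ConAstro gave 0 of 35 genes called and 0% of 16672 genes (Kynu did not pass the filter on low counts here, nor in the 4 comparisons that follow). At an unadjusted p under 0.05 there were 12 of 35 members, 34.3%, where 20.3% of all genes passed. All 12 were higher in SFN-fed cKOAstro, beside 11.4% of all genes that passed in that direction. The lowest adjusted p among the members was 0.195 (edgeR). On the same counts DESeq2 called 2 of 35 (Bcat2, Psat1) and 367 genes in all, and limma-voom with sample weights called 13 of 35 and 4398 genes, so the number of calls depends on the tool. Without the 2 libraries that go against their labels, 8 of 35 had an unadjusted p under 0.05, against 14.9% of all genes. All 8 were again higher, against 9.01% of all genes in that direction. The median log2 fold change of the 35 was 0.10, beside 0.0073 for all genes, and 0.056 without the 2 libraries.

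Bcat2 (chr7:45570153-45589711, plus strand, GRCm38), which transfers the amino group of leucine, isoleucine and valine in mitochondria, had the lowest p of the set. It measured 27.7, 22.8, 29.0, 24.2 and 26.3 CPM in SFN-fed ConAstro and 33.4, 41.0, 29.2, 39.5, 44.9, 45.2 and 29.4 CPM in SFN-fed cKOAstro. Every SFN-fed cKOAstro library was above every SFN-fed ConAstro library, by a narrow margin for replicates 3 and 7. The log2 difference was 0.52 ± 0.12 (edgeR unadjusted p = 0.000904, adjusted p = 0.195), and 0.53 ± 0.14 without the 2 libraries. Of its exon bases, 15.9% overlap 0610005C13Rik on the other strand, and the strand setting of the counting is not given in the sources used here, so its level is uncertain to that extent.

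Psat1 (chr19:15904678-15947337, minus strand) measured 599, 519, 533, 579.8 and 564 CPM in SFN-fed ConAstro and 585 to 891 CPM (median 744) in SFN-fed cKOAstro. Only replicate 3 of SFN-fed cKOAstro lay within the range of SFN-fed ConAstro, and without the 2 libraries the groups did not overlap. Its log2 difference was 0.37 ± 0.11 (edgeR unadjusted p = 0.00418). Bcat1 (chr6:144993835-145076184, minus strand), the cytosolic branched-chain aminotransferase, had the largest difference of the 35, with 9.17 to 23.4 CPM in SFN-fed ConAstro and 14.9 to 97.8 CPM (median 30.8) in SFN-fed cKOAstro. The log2 difference of 1.53 ± 0.50 (unadjusted p = 0.00853) came from replicates 2, 5 and 6, at 72.1, 97.8 and 66.6 CPM, and from replicate 4 at 30.8 CPM, while the other 3 libraries overlapped with SFN-fed ConAstro. Gpt2 (chr8:85492576-85527560, plus strand), which interconverts alanine and glutamate in mitochondria, followed a like pattern. It held 97.5 to 144 CPM against 123 to 352 CPM, a difference of 0.82 ± 0.27 (edgeR unadjusted p = 0.00867). Replicate 2 of SFN-fed cKOAstro, high in Bcat1, is a library that goes against its label. Without the 2 such libraries the log2 differences were 1.49 for Bcat1 and 0.79 for Gpt2.

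The other 8 genes with an unadjusted edgeR p under 0.05 came from sulfur, selenium, glycine, alanine and amine metabolism. Cystathionine beta-synthase Cbs (0.32 ± 0.099, unadjusted p = 0.00617) and cystathionine gamma-lyase Cth (0.28 ± 0.098, unadjusted p = 0.0140) form the path from homocysteine to cysteine, and were both higher. Csad (0.28 ± 0.087, unadjusted p = 0.00666) makes the precursor of taurine, and Scly (0.32 ± 0.11, unadjusted p = 0.0105) frees selenium from selenocysteine. In the glycine group, Shmt1 (0.49 ± 0.22, unadjusted p = 0.0420) and Gcat (0.24 ± 0.10, unadjusted p = 0.0378), an enzyme of threonine breakdown, met p under 0.05, and Shmt2 (0.10 ± 0.07), Gldc (-0.17 ± 0.16) and the serine racemase Srr (-0.12 ± 0.079) did not. Gpt differed by 0.23 ± 0.098 (unadjusted p = 0.0391) and aromatic amino acid decarboxylase Ddc, which makes dopamine and serotonin, by 0.61 ± 0.27 (unadjusted p = 0.0457). None of the 3 salvage genes, the 3 glycogen phosphorylases or the 3 genes of acyl-CoA condensing enzymes (Sptlc1, Sptlc2, Alas1) had an unadjusted p under 0.05. Of the salvage genes Pdxk had the lowest p at 0.46 ± 0.25, with 112 to 211 CPM against 125 to 398 CPM, and 39.0% of its exon bases overlap another gene on the other strand.

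Markers of other cells also differed between these 2 groups at an unadjusted p under 0.05. Lower in SFN-fed cKOAstro were 4 of 6 endothelial markers (sum 152 to 652 CPM, against 403 to 644 CPM), 3 of 4 fibroblast markers (69.1 to 139 CPM, against 107 to 148 CPM) and 2 of 4 mural markers (328 to 818 CPM, against 525 to 868 CPM). Of 6 oligodendrocyte markers 1 was higher (21013 to 50562 CPM, against 18813 to 26586 CPM), and 0 of 6 microglia markers passed. Their part in the differences of the PLP enzymes was not tested.

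Within the numbered libraries alone the same 12 differences were smaller for all but Csad and Cth. Bcat1 differed by 1.08, Gpt2 by 0.71, Bcat2 by 0.37, Psat1 by 0.27, Cbs by 0.23 and Ddc by 0.18 among them, and 0 members were called. With replicate 2 of SFN-fed cKOAstro also left out, so that 3 numbered SFN-fed cKOAstro libraries met 4 numbered SFN-fed ConAstro libraries, the values were 0.25 for Bcat1, 0.39 for Gpt2, 0.26 for Bcat2, 0.17 for Psat1, 0.17 for Cbs and -0.13 for Ddc. Csad kept 0.29, near its pooled 0.28. Astro-named libraries among SFN-fed ConAstro come down to the single library that goes against its label, so no value within that series was computed.

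SFN itself was compared with the control diet within each genotype. In ConAstro, 0 of 35 members were called against 0% of 16509 genes (edgeR; 0 members also by DESeq2 and limma-voom), and 1 of 35 had an unadjusted p under 0.05, where 6.54% of all genes passed. This was Alas1, the first enzyme of heme synthesis, at 38.7, 44.8, 42.3 and 49.1 CPM in ConAstro and 53.5, 48.4, 46.1, 52.1 and 51.0 CPM with SFN (log2 difference 0.20 ± 0.075, unadjusted p = 0.0235). The groups overlapped through ConAstro replicate 4 and 2 SFN-fed libraries. Without replicate 1 of SFN-fed ConAstro the difference of Alas1 was 0.17 and missed p under 0.05. By edgeR 3 other genes met it, all lower with SFN, against 8.41% of all genes and 4.43% in that direction. They were Csad (-0.22 ± 0.074, unadjusted p = 0.0150), Gpt2 (-0.48 ± 0.21, unadjusted p = 0.0466) and Nfs1 (-0.17 ± 0.065, unadjusted p = 0.0252). For Nfs1, all 4 remaining SFN-fed libraries (31.7 to 37.4 CPM) were then below all ConAstro libraries (37.9 to 41.6 CPM).

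In cKOAstro, SFN gave 0 of 35 called against 0% of 16903 genes (0 members also by DESeq2 and limma-voom), and 4 of 35 at an unadjusted p under 0.05, close to the 10.9% of all genes. Higher with SFN were Ddc (0.74 ± 0.24, unadjusted p = 0.00713), Gpt (0.27 ± 0.10, unadjusted p = 0.0177) and Psat1 (0.26 ± 0.10, unadjusted p = 0.0216). Lower was Hdc (-0.49 ± 0.19, unadjusted p = 0.0210), which makes histamine and measured 20.2 to 44.5 CPM (median 29.7) in cKOAstro and 14.0 to 32.7 CPM (median 21.4) with SFN, with overlap. Mast cell markers (Cma1, Tpsb2, Mcpt4, Cpa3) summed to 2.07 CPM in SFN-fed cKOAstro replicate 1 and to at most 0.911 CPM in the other libraries. Within numbered libraries without replicate 2, Hdc differed by -0.81 and Ddc by 0.073. The groups shared no starting number there, so diet cannot be told apart from what the numbers stand for. Summed ependymal markers (Foxj1, Ccdc153, Tmem212, Rsph1, Dynlrb2) were 222 to 577 CPM in cKOAstro and 173 to 486 CPM in SFN-fed cKOAstro. The part of either cell type in the Hdc difference was not tested.

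SFN-fed cKOAstro was also set against untreated ConAstro, the comparison that asks whether treated mutants differ from plain controls. Again 0 of 35 were called against 0% of 16753 genes (0 by DESeq2, and 1, Psat1, by limma-voom). By edgeR 3 of 35 had an unadjusted p under 0.05, beside 8.67% of all genes. All 3 were higher, beside 4.01% of all genes in that direction. They were Bcat2 (0.38 ± 0.13, unadjusted p = 0.0142), Psat1 (0.27 ± 0.11, unadjusted p = 0.0336) and Ddc (0.71 ± 0.30, unadjusted p = 0.0364). The test of whether SFN acted differently in the 2 genotypes called 0 of 35 and 0% of 17302 genes (0 members also by DESeq2 and limma-voom). At an unadjusted p under 0.05 it held Psat1 (0.34 ± 0.13, unadjusted p = 0.0178), Csad (0.30 ± 0.13, unadjusted p = 0.0296) and Bcat1 (1.58 ± 0.74, unadjusted p = 0.0446), 3 of 35 where 7.32% of all genes passed. Both comparisons of SFN-fed cKOAstro with a control group use the same SFN-fed cKOAstro libraries, as does the comparison with cKOAstro, so their values for Psat1, Bcat2 and Ddc are not independent of each other. Of the numbered libraries, those that start with 143 hold all 4 ConAstro and 3 SFN-fed cKOAstro libraries (replicates 1, 2 and 7). Among these, Bcat2 measured 25.4 to 30.6 CPM in ConAstro and 33.4, 41.0 and 29.4 CPM in SFN-fed cKOAstro. Psat1 measured 567 to 637 CPM in ConAstro and 614, 797 and 653 CPM in SFN-fed cKOAstro. Ddc measured 20.8 to 25.7 CPM in ConAstro and 22.6, 44.6 and 20.1 CPM in SFN-fed cKOAstro. For all 3 genes the groups overlapped there, and the highest value was that of replicate 2, which goes against its label.

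**Figure D3:**
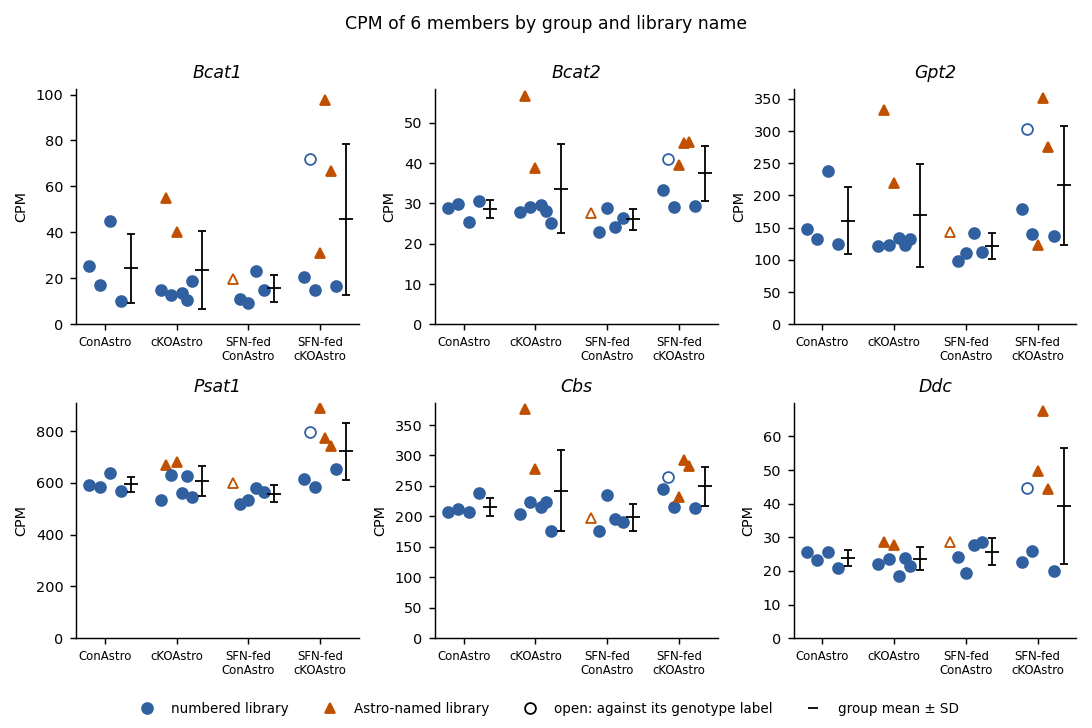
CPM of 6 members in every library, by group. Circles are numbered and triangles Astro-named libraries, open symbols the 2 libraries against their genotype label, and black bars the group mean with its SD; in both mutant groups most of the highest values are triangles, joined by the open circle of SFN-fed cKOAstro.

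Differences past the adjusted threshold were found between the 2 series of library names. This comparison was added after the data had been seen. With group as a term, 6 Astro-named libraries against 17 numbered ones gave 10 of 36 members called (27.8%), 8 higher and 2 lower, where 5.85% of 18107 genes (1059) were called by edgeR. On the same libraries DESeq2 called 13 members and 2118 genes, and limma-voom 13 members and 2776 genes. That count rests on few libraries, since leaving out cKOAstro replicate 2, the library with Xist, gave 0 members (and 0 genes) called. It was 2 without SFN-fed cKOAstro replicate 5, 3 without replicate 3 and 4 without replicate 6 of that group, 5 without its replicate 7 or without cKOAstro replicate 3 or 4, 6 without cKOAstro replicate 5 or 6, and 8 to 12 without any other single library. Over these 23 fits with 1 library left out, 0 to 2183 genes were called in all. Without the 2 libraries that go against their labels, 5 Astro-named libraries stood against 16 numbered ones. This gave 13 of 36 members (36.1%), where 17% of 17636 genes were called. Leaving out 1 more library from these gave 11 to 16 members, and 12 without cKOAstro replicate 2. Calls over all genes were not counted in those fits. Of the 13, 10 were higher, against 7.85% of all genes, and 3 were lower, against 9.15%. The 10 that were called with all libraries were among the 13, which also held Gpt2, Got1 and Oat.

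Without the 2 libraries, Bcat1 was 1.83 ± 0.31 higher in the Astro-named libraries (log2, SE; edgeR adjusted p = 0.000349), at 30.8 to 97.8 CPM (median 55.1) against 9.17 to 44.98 CPM (median 14.97). The value at 44.98 CPM, ConAstro replicate 3, was the only numbered library above the lowest Astro-named one. Bcat2 was 0.64 ± 0.086 higher (adjusted p = 5.87e-05), at 38.9 to 56.7 CPM against 22.8 to 33.4 CPM, with no overlap. Psat1 (0.30 ± 0.064), Scly (0.44 ± 0.063) and Shmt1 (0.70 ± 0.13) were also higher in every Astro-named library than in every numbered one. Sgpl1, which splits sphingosine phosphate, was lower in every one (-0.34 ± 0.054, adjusted p = 0.000225), at 84.4 to 95.1 CPM against 102 to 133 CPM. Gpt2 (0.92 ± 0.20), Ddc (0.83 ± 0.15), Cbs (0.46 ± 0.097), Got1 (0.39 ± 0.087) and Csad (0.20 ± 0.069) were higher with some overlap. The P protein Gldc (-0.40 ± 0.11) and Oat (-0.24 ± 0.076) were lower. The transaminases thus supplied 5 of the 10 higher genes, both branched-chain enzymes among them, and edgeR called no salvage gene or glycogen phosphorylase on these 21 libraries. With 1 more library left out it called Pygb (without cKOAstro replicate 1 or 7) or Pdxk (without SFN-fed cKOAstro replicate 4), and DESeq2 called Pygb with all 23 libraries.

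**Figure D4:**
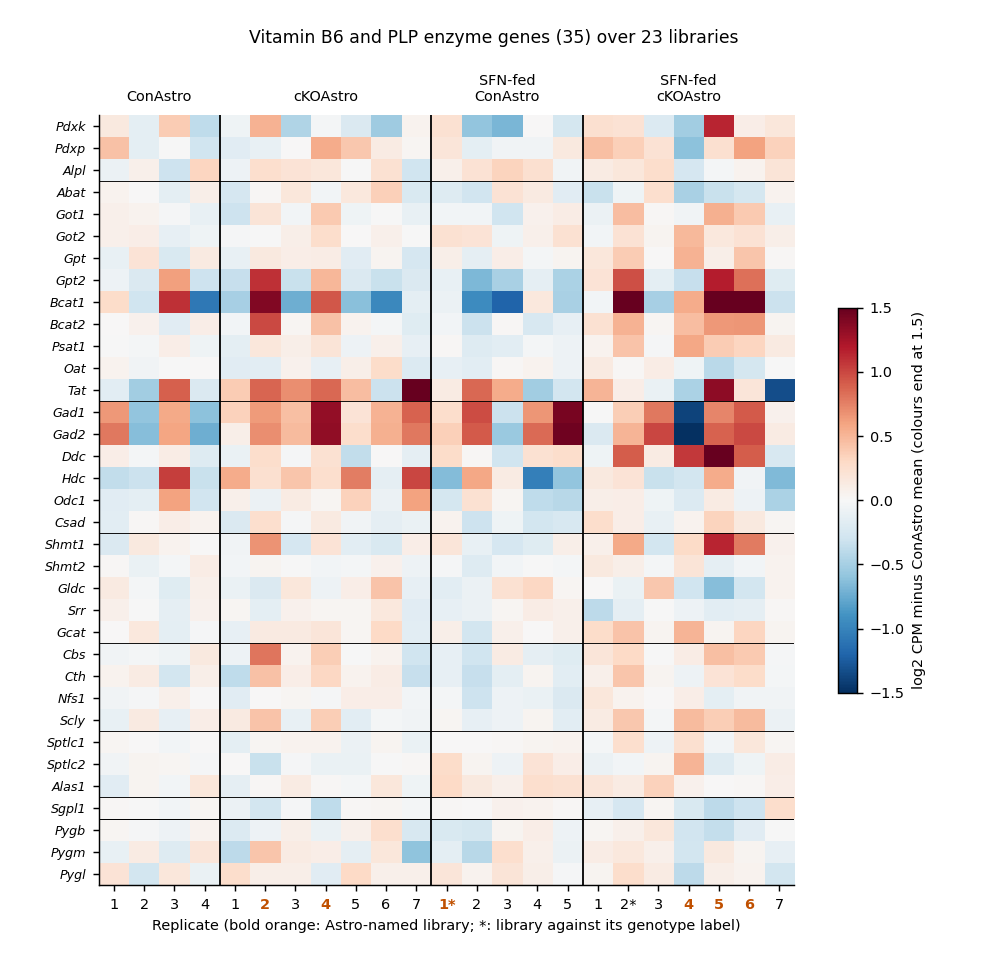
Log2 CPM of 35 genes in each of the 23 libraries, minus the mean of ConAstro. Rows are ordered by role and columns by group and replicate, bold orange numbers mark Astro-named libraries and an asterisk the 2 libraries against their label; Bcat1, Gpt2, Ddc and Shmt1 are dark red in cKOAstro replicate 2 or in SFN-fed cKOAstro replicates 2, 5 and 6.

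The 2 left-out libraries had values like those of the other name series for most of these genes. SFN-fed cKOAstro replicate 2, a numbered library, held 72.1 CPM of Bcat1, 41.0 of Bcat2, 797 of Psat1, 304 of Gpt2 and 92.9 of Sgpl1, all within the range of the 5 Astro-named libraries. SFN-fed ConAstro replicate 1, an Astro-named library, held 19.8, 27.7, 599, 144 and 113 CPM of the same genes, of which all but Gpt2 lay within the range of the 16 numbered libraries alone and Gpt2 within both ranges. What the names stand for (a date, a cage, a run) is not given in the sources used here, and since ConAstro had no Astro-named library, name series and genotype overlap in part.

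The contrast was also fitted within each mutant group, on libraries that have none in common. In cKOAstro, 2 Astro-named against 5 numbered libraries gave 8 of 36 members called (22.2%), against 5.31% of 17977 genes. They were Bcat1 (1.77 ± 0.19), Gpt2 (1.14 ± 0.14), Bcat2 (0.79 ± 0.13), Cbs (0.67 ± 0.14), Scly (0.45 ± 0.093), Got1 (0.42 ± 0.093) and Csad (0.31 ± 0.073), which were higher, and Sgpl1 (-0.29 ± 0.067), which was lower. In SFN-fed cKOAstro without replicate 2, 3 against 3 libraries gave 1 of 35, Ddc (1.21 ± 0.19, adjusted p = 0.0447), against 1.81% of 16605 genes. All 8 members called in cKOAstro had the same sign there, as did 94.6% of the 946 genes called in cKOAstro and tested in both. Bcat1 (1.88 ± 0.40), Bcat2 (0.46 ± 0.12), Scly (0.40 ± 0.11) and Sgpl1 (-0.41 ± 0.12) also had an unadjusted p under 0.05, 50% of the 8, beside 60.9% of the 946. With replicate 2 kept among the numbered libraries of SFN-fed cKOAstro, edgeR called 0 genes of 16752, and 8 members and 1877 genes had an unadjusted p under 0.05.

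**Figure D5:**
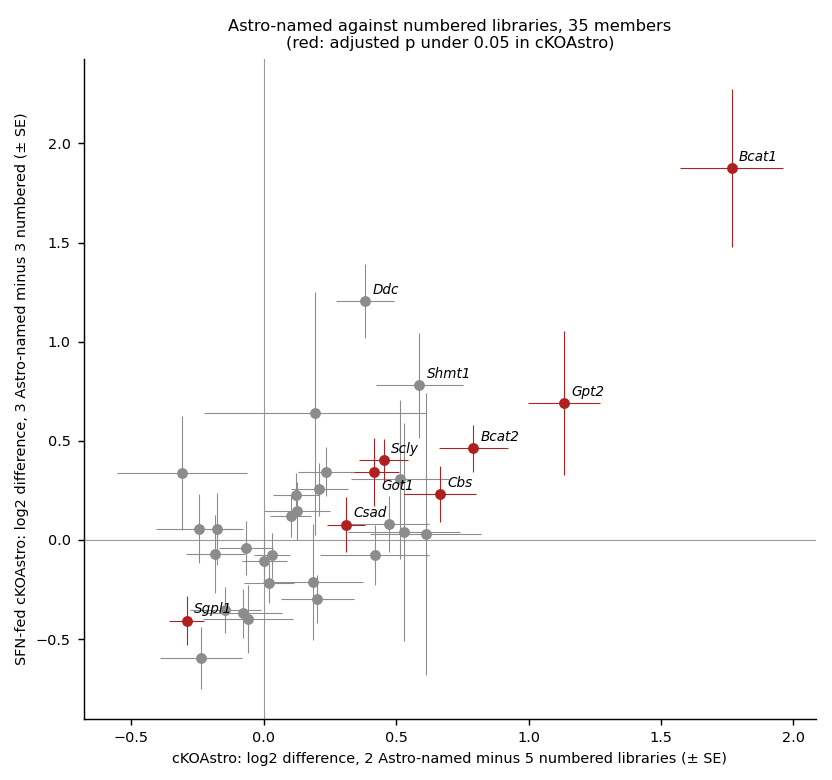
Difference between Astro-named and numbered libraries for 35 genes, in cKOAstro (horizontal) and in SFN-fed cKOAstro without replicate 2 (vertical), as log2 fold change with SE bars. Red points were called in cKOAstro, and each lies on the same side of 0 in both groups, with Bcat1 farthest out.

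Markers of other cell types also differed between the name series, with a median log2 difference of -2.60 for microglia without the 2 libraries. Their summed level over 6 genes (Cx3cr1, P2ry12, Tmem119, Csf1r, C1qa, Aif1) was 181 to 348 CPM in the 5 Astro-named libraries and 574 to 2073 CPM in the 16 numbered ones, with 203 CPM in the numbered library SFN-fed cKOAstro replicate 2 and 1789 CPM in the Astro-named library SFN-fed ConAstro replicate 1. Oligodendrocyte markers summed to 23085 to 50562 CPM in the 5 and 18813 to 26026 CPM in the 16. By edgeR without the 2 libraries, 6 of 6 microglia markers were called lower in the Astro-named libraries and 3 of 6 oligodendrocyte markers higher. Called lower were also 2 of 4 fibroblast markers (median log2 difference -0.79), 1 of 6 endothelial, 1 of 4 mural and 1 of 4 oligodendrocyte precursor markers. Of 6 neuron markers 1 was called higher, with a median of 0.52 and sums of 189 to 827 CPM in the 5 and 214 to 645 CPM in the 16. The part of any of these in the differences of the PLP enzymes was not tested.

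Because 13 of these genes were called in the same contrast, the promoters of the set were searched for 3 short motifs on both strands: TGATGNAA, the element bound by ATF4, the activator of amino acid synthesis genes; TGACNNNGC, the core of the antioxidant response element bound by NRF2; and TATAAA, the TATA box. RefSeq (GRCm38.p6) gave a promoter of 300 bases, from 250 before to 50 after the start, for 32 of the 36 genes, 39 promoters in all as some genes have more than 1 start. TGATGNAA was in the promoters of 1 gene, Got1, where 4.51% of all genes hold it. TGACNNNGC was in 3 (Gad2, Nfs1, Alpl), beside 14.0% of all genes, and TATAAA in 5 (Gad1, Alpl, Bcat1, Got2, Ddc), beside 15.7%. Counted from the start, the TATAAA match began at -219 on the gene's strand in Bcat1. On the other strand it was at -141 in Gad1, -192 in Alpl, -142 in Got2 and -68 in Ddc. The search set no position or strand for a TATA box, so these are matches to its letters only. Of the 13 genes called in the name series contrast, only Bcat1, Got1 and Ddc hold any of the 3 motifs in this window. Bcat2, Psat1, Gpt2, Cbs, Csad, Scly, Shmt1, Sgpl1, Gldc and Oat hold none. Bcat1, Bcat2, Psat1 and Ddc each have a second promoter in RefSeq, not shown, that holds none of the 3. The promoters shown are those of 5 of the called genes, with any of the motifs, as read on the gene's strand, in capitals. They lie at chr6:145076108-145076407 (Bcat1, minus strand), chr7:45569903-45570202 (Bcat2, plus strand), chr19:15925010-15925309 (Psat1, minus strand), chr19:43524556-43524855 (Got1, minus strand) and chr11:11898095-11898394 (Ddc, minus strand). A match describes the sequence and is not a sign of binding.
Bcat1: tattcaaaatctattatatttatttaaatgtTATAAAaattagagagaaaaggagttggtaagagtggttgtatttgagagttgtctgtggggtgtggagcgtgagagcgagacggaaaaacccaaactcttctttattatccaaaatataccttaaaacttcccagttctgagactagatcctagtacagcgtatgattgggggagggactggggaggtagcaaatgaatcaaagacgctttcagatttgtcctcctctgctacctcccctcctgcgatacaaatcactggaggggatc
Bcat2: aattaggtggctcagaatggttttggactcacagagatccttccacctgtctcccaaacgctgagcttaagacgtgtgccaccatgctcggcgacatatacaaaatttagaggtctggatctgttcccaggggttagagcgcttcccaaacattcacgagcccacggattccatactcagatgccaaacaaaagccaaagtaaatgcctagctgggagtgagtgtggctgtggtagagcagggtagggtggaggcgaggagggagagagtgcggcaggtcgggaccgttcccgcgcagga
Psat1: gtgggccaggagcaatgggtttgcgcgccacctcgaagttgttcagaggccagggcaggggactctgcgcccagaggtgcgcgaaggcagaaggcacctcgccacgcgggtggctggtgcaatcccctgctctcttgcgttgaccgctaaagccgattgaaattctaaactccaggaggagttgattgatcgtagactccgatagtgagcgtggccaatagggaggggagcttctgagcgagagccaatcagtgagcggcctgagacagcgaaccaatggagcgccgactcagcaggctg
Got1: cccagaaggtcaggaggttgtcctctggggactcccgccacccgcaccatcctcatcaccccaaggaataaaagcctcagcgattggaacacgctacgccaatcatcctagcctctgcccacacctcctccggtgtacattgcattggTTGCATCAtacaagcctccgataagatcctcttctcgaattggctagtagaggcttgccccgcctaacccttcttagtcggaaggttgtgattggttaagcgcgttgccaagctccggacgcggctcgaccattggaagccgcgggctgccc
Ddc: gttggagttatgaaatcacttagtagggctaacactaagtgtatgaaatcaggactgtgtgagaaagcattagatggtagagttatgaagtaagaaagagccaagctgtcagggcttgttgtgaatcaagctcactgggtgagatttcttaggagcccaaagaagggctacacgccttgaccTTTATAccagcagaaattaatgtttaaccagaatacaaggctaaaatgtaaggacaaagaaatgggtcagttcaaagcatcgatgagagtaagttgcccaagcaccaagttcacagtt

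Other genes of vitamin B6 and PLP biology, and enzymes without PLP that work beside the members, were read from the same fits. Of 21 other genes (such as Plpbp, listed as Prosc, a PLP-binding protein), 19 were tested and 0 called in each of the 5 comparisons of groups and the interaction. At an unadjusted p under 0.05 they gave 1 of 19 (Sepsecs, -0.23 ± 0.094) between the genotypes on the control diet, beside 3.74% of all genes, and 7 of 19 (36.8%) on the SFN diet, all higher in SFN-fed cKOAstro, beside 20.3% of all genes in both directions and 11.4% higher. These 7 included Prosc (0.34 ± 0.13), Sds (1.00 ± 0.28), Tha1 (0.40 ± 0.10) and the kynurenine aminotransferases Kyat1, listed as Ccbl1 (0.29 ± 0.087), and Kyat3, listed as Ccbl2 (0.26 ± 0.11). Of 40 neighbouring enzymes 38 were tested and 0 called, and 12 of 38 (31.6%) had an unadjusted p under 0.05 on the SFN diet, 11 higher, against the same shares of all genes. Among them, Phgdh (0.26 ± 0.10) and Psph (0.26 ± 0.076) flank Psat1 in serine synthesis, and Bckdha (0.27 ± 0.073) and Bckdhb (0.25 ± 0.073) act after the branched-chain transaminases. Without the 2 libraries, the name series contrast called 5 of 19 of the other PLP genes (26.3%) and 6 of 38 neighbouring enzymes (15.8%), beside 17% of all genes.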

How the data were processed

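Per the labels and methods, the authors sequenced polyadenylated RNA (paired reads), ran FastQC, and aligned and counted with STAR on mm10; version, annotation and strand setting are not given in the sources used here. The deposited table holds raw counts of 24411 genes in 23 libraries, with 0 columns of other samples. Per the study's methods n counts animals, so p-values measure the spread between the animals of a group. In the main comparisons of groups, that spread includes differences between the name series and the 2 libraries that go against their labels. Total counts were 74771451 to 84049525 in ConAstro, 107847897 to 391701247 in cKOAstro, 46890715 to 219904257 in SFN-fed ConAstro and 86276988 to 140464734 in SFN-fed cKOAstro.

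Groups were compared in pairs, and the interaction over all 4, with edgeR 4.0.16 (R 4.3.3, limma 3.58.1): quasi-likelihood test, TMM, filterByExpr (minimum count 10, minimum total 15), Benjamini-Hochberg over all genes, threshold 0.05. CPM values are TMM-normalized, and lengths for CPM per kb are the joined exons of GENCODE M21. Alternatives were DESeq2 1.42.0, limma-voom, RLE scaling, no filter, thinned counts, all groups in 1 fit, a replicate block, each library left out, numbered libraries alone and without the 2 libraries that go against their labels. Named in each comparison are the members past the adjusted threshold or with an unadjusted p under 0.05, others by counts, isozymes by level; further members were named after their values were seen. Members, lists and tests were chosen with earlier results of these data known. Older symbols in the table (Prosc, Ccbl1, Ccbl2) were matched through RefSeq synonyms. The edgeR test of the pairwise comparisons was tried on simulated counts, and so was a name series fit without the low-count filter. The interaction, DESeq2 and limma-voom were not tried on simulated counts.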

Additional observations from a re-analysis of the deposited data

Results flagged for a closer look

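Each gene was looked at in each group, 144 pairs in all, for a single library far from the rest of its group by Dixon's criterion, which chance meets in about 1 group in 20. It was met in 11 pairs (7.64%), over 10 genes, and each is given in CPM against the range of the other libraries of its group.

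ConAstro replicate 3 held 45.4 of Hdc (17.2 to 17.7 in the others), 107 of Odc1, which starts polyamine synthesis (57.6 to 63.2), and 1.16 of Tat (0.434 to 0.555). The same library had the highest sum of ependymal markers, 606 CPM, and cKOAstro replicate 7, with 577 CPM, held 44.5 of Hdc, 107 of Odc1 and 1.83 of Tat. These libraries also had the highest sums of inhibitory neuron markers, 149.7 CPM in ConAstro replicate 3 and 47.4 CPM in cKOAstro replicate 7. The part of either cell type in these values was not tested. cKOAstro replicate 2, the library with Xist, held 6.49 of Shmt1 (3.43 to 4.70) and 33.8 of Sptlc2 (39.96 to 43.2). SFN-fed cKOAstro replicate 4, the library highest in oligodendrocyte markers, held 12.5 of Pdxp (22.4 to 29.0) and 61.0 of Sptlc2 (37.2 to 46.2). SFN-fed cKOAstro replicate 5 held 398 of Pdxk (125 to 212). cKOAstro replicate 4 held 56.7 of Got2 (46.6 to 50.2). SFN-fed ConAstro replicate 2 held 19.4 of Gcat (23.5 to 24.9) and 36.9 of Shmt2 (41.1 to 42.1). The tests of the interaction called 0 of 35 genes.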

How the results depend on the processing

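Calls between SFN-fed genotypes depended on the tool and on single libraries. DESeq2 called 2 members (Bcat2, Psat1) and limma-voom 13. Leaving out 1 library gave 0 to 2 members, where 0 to 701 genes were called in all over the same fits. The 2 (the same Bcat2 and Psat1) came without SFN-fed cKOAstro replicate 3. For SFN-fed cKOAstro against ConAstro, limma-voom called 1 member, Psat1. In the name series contrast, leaving out 1 library gave 0 to 12 members called, where 0 to 2183 genes were called in all. Over all genes, edgeR, DESeq2 and limma-voom called 4, 8 and 4 for cKOAstro against ConAstro, 0, 367 and 4398 between the SFN-fed genotypes, 0, 23 and 0 for SFN in ConAstro, 0, 11 and 0 for SFN in cKOAstro, 0, 8 and 656 for SFN-fed cKOAstro against ConAstro, and 0, 3 and 0 for the interaction; the cause was not tested. The sign of Ddc turned among numbered libraries without the 2 that go against their labels, to -0.13 between SFN-fed genotypes and -0.065 against ConAstro, with the Astro-named libraries left out by construction. Under RLE scaling, no filter, thinned counts, numbered libraries alone, all groups in 1 fit and without the 2 libraries, 0 members were called in every comparison of groups fitted. Of the alternatives to counts of calls, 155 stayed within the same bounds, 4 gave more calls and 9 moved. For single genes, 740 kept direction and side of the threshold, 75 lost it, 17 gained it and 2 turned. Only the 10 members called in the name series contrast could lose it, so all 75 losses fell on them. Values from the comparisons of groups were not past the threshold in the main edgeR fit, so keeping their side of it says little.

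Replicate numbers did not pair the samples: same-numbered libraries correlated by -0.117 to 0.0555 for cKOAstro against ConAstro and by -0.203 to 0.358 for SFN in cKOAstro, and with the replicate number as a block 0 members were called in any of the 6 comparisons.

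Levels per kb depend on the length used: with the longest transcript, 28 levels moved by more than 1 SD, places moved by at most 6, and Psat1 came first. Exon overlaps also leave Pdxp (45.1%), Srr (30%) and Nfs1 (11.2%) uncertain.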
